A study of Mus musculus with 346 samples.

Results

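The genes described are those of ephrin, semaphorin and Slit guidance signalling, taken by name from the table of all genes: Eph receptors, ephrins, semaphorins of classes 3 to 7, plexins, neuropilins, Slits and Robo receptors. The rule found 55 genes among 20474. They comprise 5 ephrin-A and 3 ephrin-B ligands, 7 EphA and 5 EphB receptors, 7 class 3, 6 class 4 and 6 class 5 or 6 semaphorins, 8 plexins, 2 neuropilins, 3 Slits and 3 Robo receptors. The rule reads gene names and no measured value, and this set of families was picked with earlier results of these data known.

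Ephrins are membrane-bound ligands that signal to Eph receptor tyrosine kinases on a touching cell, and also back into the cell that carries them. Semaphorins bind plexins, with neuropilins as partners for most of the secreted class 3 members, while Slits are secreted and bind Robo receptors. These pathways were first described in growing axons, and they also steer the sorting of cells, the growth of vessels and the shaping of epithelial organs, the pancreas included.

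Expression was read in 346 single cells of Prox1-GFP mouse embryos, the line Tg(Prox1-EGFP), in which a fluorescent reporter follows Prox1, a homeobox factor of early liver and pancreas. Every group carried the reporter and was sorted for it, and no cells without it were sequenced. At embryonic day (E) 8.5 the foregut gave 82 cells on plate 1A. At E10.5 the dorsal pancreatic bud gave 48 cells on plate 2A and 38 on plate 2B, the ventral pancreatic bud 27 and the liver bud 78. Another 73 came from the E14.5 pancreas. The labels name no animal, so each plate is 1 sample. No test was run, and tissue, stage and plate cannot be told apart except within the dorsal bud, which has 2 plates. A level is the mean of log2(normalized reads + 1) in a class, ± SD over cells, which describes the spread between cells and not a replicate error. A gene counts as found in a cell at 5 normalized reads or more, and 2 classes are said to differ where their mean levels are at least 1 apart. Nearly every class held cells at 0 for every gene, so value ranges of classes overlapped unless stated otherwise, and the lowest cell was at 0 unless another value is given.

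Marker genes were checked against the labels, and every plate but the ventral one was split by 1 gene at a level of 5. On the foregut plate, labelled as endoderm, 45 of the 51 cells with Rfx4, a factor of the neural tube, had at least 3 of the 9 other neural tube markers, and the remaining cells had 2. Of 6 epithelial markers, Cdh1, Krt19 and Cldn6 were found in none of the 51, Epcam in 4, Krt8 in 2 and Krt18 in 6, and none of these cells had 3 or more. The 31 cells without Rfx4 were mixed: 12 had 3 or more epithelial markers, 11 cardiac, 8 neural tube, 5 hepatoblast and 4 endothelial ones. Of the E14.5 cells, labelled as pancreatic epithelium, 58 had Col1a1, a fibrillar collagen. All 58 had at least 3 of the 9 mesenchyme markers other than Col1a1, and none of the 6 epithelial markers was found in any. Of the other 15, 13 had epithelial and 12 endocrine markers. The dorsal bud held 66 cells with the epithelial adhesion gene Epcam (22 with 3 or more endocrine markers) and 20 without it (10 with mesenchyme markers). Of the 66, 64 had epithelial and 3 mesenchyme markers. Of the 20, 3 had epithelial and 1 endocrine markers, and 2 and 1 of these were among the 7 on plate 2A. All 27 ventral bud cells had epithelial markers, and 20 had hepatoblast markers. The liver was split by Afp, the fetal liver gene, into 47 cells with it, all with at least 5 of the 8 other hepatoblast markers, and 31 without, of which 18 had mesenchyme and 11 cardiac markers. Median reads per class ran from 760738 to 2644690, with the liver deepest, and no cell had fewer than 510222.

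Guidance genes were present in all tissues but least in hepatoblasts. The median number of members found per cell was 12 in foregut cells with Rfx4 and 11 without. It was 10 and 12 in dorsal bud cells with Epcam (plates 2A and 2B), 13 and 14 in those without. Ventral cells had a median of 7 members. In liver cells it was 3 with Afp and 5 without, and at E14.5 it was 9 with Col1a1 and 5 without. After thinning each cell to 500000 reads the liver medians were 2 and 5. The deepest libraries thus gave the fewest members. Of the 55 members, 50 were found somewhere among the foregut Rfx4+ cells and 26 among the liver Afp+ cells. The number of all genes found differed too, with medians per cell of 6647 in foregut Rfx4+, 4202 in ventral and 3891 in liver Afp+ cells. It was lower still in liver Afp- (2936) and E14.5 cells (3036 with Col1a1, 3828 without), which had more members than liver Afp+ cells. How far members follow the number of genes was not tested.

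**Figure D1:**
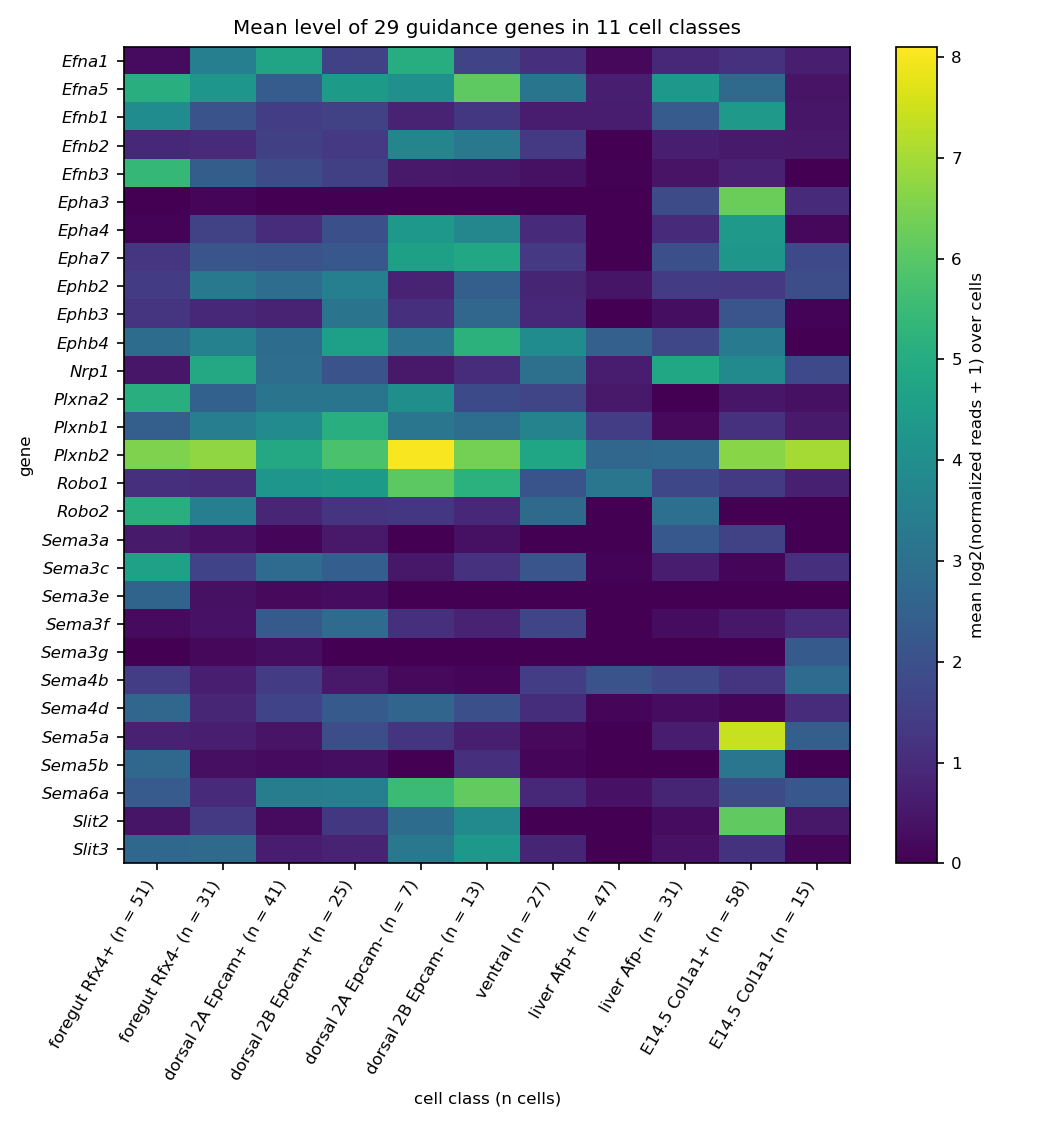
Mean level, as log2(normalized reads + 1) over cells, of the 29 guidance genes (rows) that differed by at least 2 in a comparison or were found in at least 50% of the cells of a class, in 11 classes of cells (columns, n in brackets). Plxnb2 is bright in most columns, Epha3 and Sema5a stand out in the E14.5 Col1a1+ column, and the liver Afp+ column is dark for most genes.

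Plxnb2, a receptor of class 4 semaphorins, was the broadest member. It was found in all 7 dorsal 2A Epcam- cells, where its values ran from 7.47 to 8.53, in 28 of 31 foregut Rfx4- cells, in 13 of 15 E14.5 Col1a1- cells, and in 14 of 47 liver Afp+ cells. Compared per length of transcript, as mean normalized reads per kilobase of merged exons, Plxnb2 led the guidance genes in E14.5 Col1a1+ cells (89.6), dorsal 2B Epcam+ cells (27.2) and liver Afp+ cells (29.5). On the same scale Efnb3 led in foregut Rfx4+ cells (37 reads per kilobase against 33.8 for Plxnb2), Efna1 in dorsal 2A Epcam+ cells (137 against 26.4) and Efna5 in liver Afp- cells (92.0 against 34.3). These are linear means, which a few bright cells can carry: Efna1 was found in 24 of the 41 dorsal 2A Epcam+ cells, and its highest value was 10.68.

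Slit2 (chromosome 5, 47983138 to 48307733) and Slit3 (chromosome 11, 35121224 to 35708507, both GENCODE M21 on GRCm38) encode secreted Robo ligands. The 100 bases before their RefSeq start sites, at 47983155 and 35121456, which lie downstream of the GENCODE gene starts, are shown because these paralogs were found in like numbers of cells in 1 class and far apart in another (RefSeq, GRCm38.p6, both on the plus strand). The capitals mark GGGCGG, the GC box of Sp-family factors, on either strand, and TATAAA.
Slit2, chr5:47983055-47983154: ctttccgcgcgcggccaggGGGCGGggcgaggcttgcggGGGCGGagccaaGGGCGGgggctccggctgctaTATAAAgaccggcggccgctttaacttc
Slit3, chr11:35121356-35121455: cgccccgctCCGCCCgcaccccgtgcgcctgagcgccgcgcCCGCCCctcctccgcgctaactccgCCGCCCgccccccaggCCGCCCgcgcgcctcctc
Both windows hold GC boxes, and the TATAAA letters are in the Slit2 window and not in the Slit3 one. CG pairs numbered 13 and 19. Over the 250 bases before each RefSeq start, GGGCGG on either strand was present in 45 of the 64 windows of the 48 members that matched, or 70.3%, against 32.7% of all 32851 windows. TATAAA was in 2 of those 64 windows, those of Efnb2 and Slit2, against 12.4% of all. A match describes letters only.

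In the dorsal bud both Slit genes were found chiefly in cells without Epcam. Slit2 was found in 11 of 20 such cells (median 4.54, highest 8.54) and in 6 of 66 cells with Epcam (median 0, highest 8.45). Slit3 was found in 12 of 20 (median 4.81, highest 10.22) and in 7 of 66 (median 0, highest 8.78). At E14.5 the pair parted: Slit2 was found in 43 of 58 Col1a1+ cells (median 7.62, highest 11.82) and Slit3 in 9 of 58 (median 0, highest 10.65). Slit3 was also found in the foregut, in 21 of 51 Rfx4+ and 13 of 31 Rfx4- cells. Neither Slit gene was found in any of the 47 liver Afp+ cells, which allows a share of up to 6.38%, and Slit2 was in none of the 27 ventral bud cells, which allows up to 11.1%. Slit1 was scarcer, with 25 cells of 346, of which 13 were foregut Rfx4+ cells.

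Robo1 was the more frequent of the Robo receptors in the dorsal bud and Robo2 in the foregut. Robo1 (chromosome 16, 72308306 to 73046095) was found in 40 of 66 dorsal Epcam+ cells (median 5.01, highest 9.90), 15 of 20 dorsal Epcam- cells (median 6.82, highest 8.42) and 19 of 47 liver Afp+ cells (median 0, highest 11.25), but in 10 of 51 foregut Rfx4+ cells. Robo2 (chromosome 16, 73891839 to 74411825) was found in 38 of 51 foregut Rfx4+ cells (median 6.20, highest 9.61) and 16 of 31 Rfx4- cells, and in 9 of 66 dorsal Epcam+ cells. In the ventral bud each was found in 10 of 27 cells, and in liver Afp- cells Robo1 was found in 7 and Robo2 in 10 of 31. Robo2 was in none of the 47 liver Afp+ cells and none of the 58 E14.5 Col1a1+ cells, which allows shares of up to 6.38% and 5.17%. Robo4, the receptor of vessel endothelium, was found in 4 of 346 cells. A cell could hold receptor and ligand at once: Robo1 or Robo2 stood with Slit2 or Slit3 in 14 of 20 dorsal Epcam- cells, in 9 of 66 Epcam+ cells, and in 7 of 58 E14.5 Col1a1+ cells, where 44 had a ligand and 11 a receptor.

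**Figure D2:**
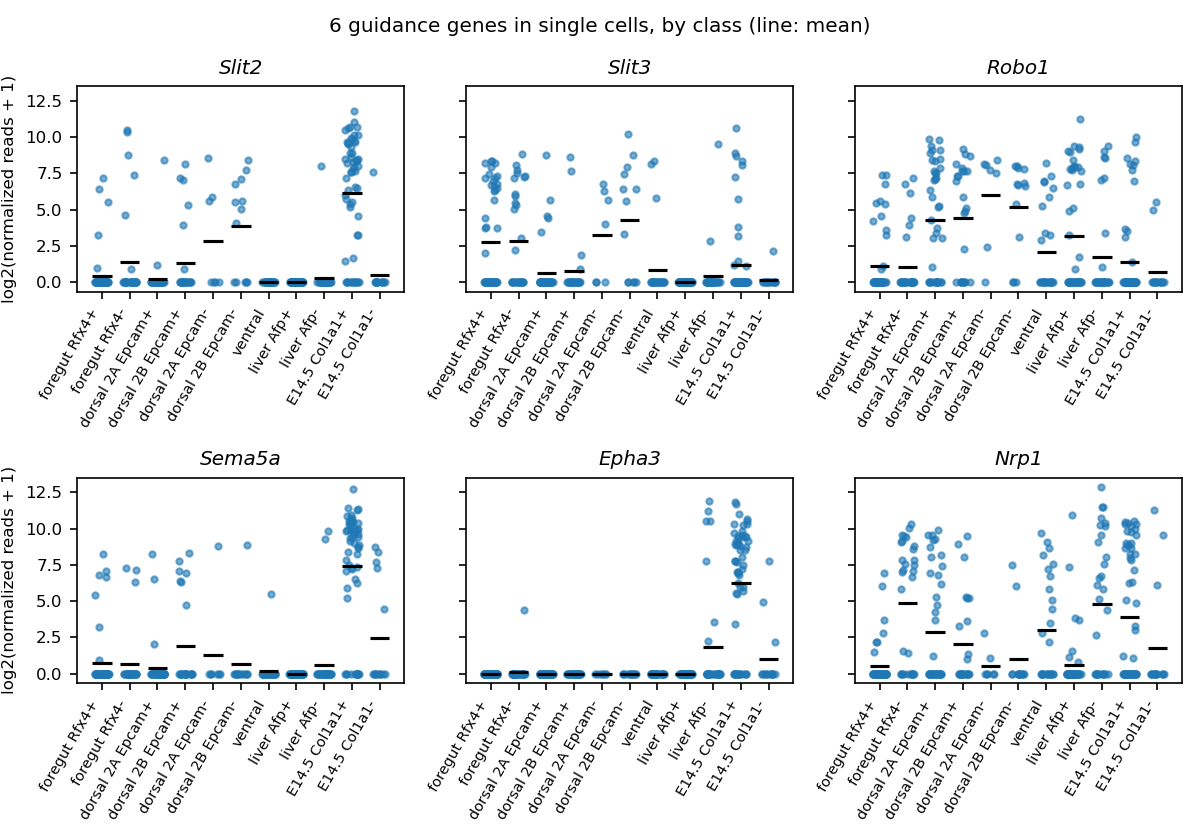
Level of 6 guidance genes in each cell, as log2(normalized reads + 1), by class (points: cells; line: mean). Slit2 and Sema5a are found in 43 and 46 of 58 E14.5 Col1a1+ cells, Epha3 in none of the dorsal or ventral bud cells, and Robo1 spreads over the dorsal bud and liver classes.

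Foregut cells with Rfx4 had more Efnb3, Efnb1, Sema3c, Sema5b and Plxna2 than those without, and less Nrp1, Efna1 and Ephb2. Rfx4+ cells were higher by at least 1 for 12 of 55 members, against 7.84% of all genes, and lower for 9, against 4.95%. By family, 2 of 3 ephrin-B genes, 2 of 7 class 3 and 2 of 6 class 5 and 6 semaphorins were among the higher ones, while 3 of 5 ephrin-A genes and both neuropilins were among the lower ones. Of the neuropilins, Nrp2 was found in 8 of 51 Rfx4+ and 9 of 31 Rfx4- cells, and 4 of these 9 had endothelial markers. Plexins split 2 higher and 2 lower of 8, and EphB receptors 1 and 1 of 5. Median depth was alike, with 1019440 reads in Rfx4+ and 1039160 in Rfx4- cells.

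Among ligands, Efnb3, a ligand of EphB receptors, was at 5.38 ± 2.96 with Rfx4 (found in 40 of 51 cells) and 2.39 ± 3.09 without (12 of 31). Sema3c, a secreted semaphorin known from the heart's outflow tract, was at 4.65 ± 3.12 against 1.64 ± 2.79, found in 36 of 51 and 8 of 31 cells. Sema3e, a ligand of Plxnd1, was found in 24 of 346 cells, of which 19 were foregut Rfx4+, 2 Rfx4- and 3 dorsal Epcam+ cells. Sema5b was at 2.75 ± 3.22 against 0.34 ± 1.34, Efnb1 at 3.94 ± 3.05 against 2.07 ± 3.03, and Sema4d at 2.67 ± 3.20 against 0.86 ± 2.11. In the other direction, Efna1, a ligand of EphA2, was at 0.24 ± 1.21 with Rfx4 and 3.49 ± 3.57 without, found in 2 of 51 and 16 of 31 cells.

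Among receptors, Plxna2 was at 5.12 ± 3.48 in Rfx4+ cells (36 of 51) and 2.53 ± 3.41 in Rfx4- cells (11 of 31). Nrp1, the neuropilin shared by class 3 semaphorins and vascular endothelial growth factor, had the greatest difference, with 0.50 ± 1.45 (4 of 51) against 4.90 ± 4.16 (18 of 31). Ephb2 was at 1.42 ± 2.35 against 3.27 ± 3.10 and Epha4 at 0.08 ± 0.58 against 1.58 ± 2.98. The Rfx4- cells did not share these genes evenly. Nrp1 was found in 7 of 8 cells with Epcam, 9 of 11 with cardiac markers and 2 of the 12 others. Ephb2 was found in all 11 cardiac-marker cells, with values from 3.47 to 7.85, where Epha4 was found in none, while Epha4 was found in 5 of 8 Epcam+ cells. Robo2 was at 5.13 ± 3.42 in Rfx4+ cells and 3.47 ± 3.61 in Rfx4- cells, and at 5.25 ± 3.39 in the 8 Rfx4- cells with Epcam, so its difference is -0.12 against those cells alone.

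**Figure D3:**
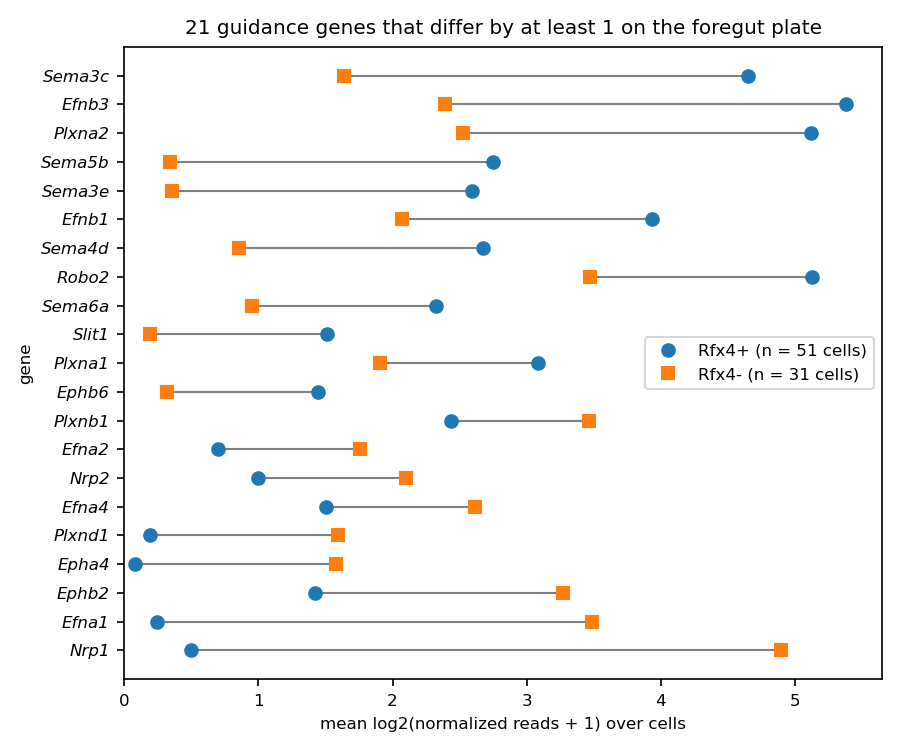
Mean level, as log2(normalized reads + 1), of the 21 guidance genes that differed by at least 1 between foregut cells with Rfx4 (circles, 51 cells) and without (squares, 31 cells). Efnb3, Sema3c and Plxna2 lie 2.59 or more higher with Rfx4, and Nrp1 and Efna1 lie furthest to the other side.

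Genes of related pathways also differed on this plate. Of 13 netrin and repulsive guidance genes, 3 were higher with Rfx4 and 2 lower. Rgma was at 5.56 ± 2.15 with Rfx4 and 2.45 ± 2.83 without, and Ntn1, the netrin of the neural tube floor, at 3.47 ± 3.25 against 0.62 ± 1.86. Unc5b, a netrin receptor, was found in no Rfx4+ cell and stood at 3.49 ± 3.49 without Rfx4. Of 41 effector genes 4 were higher and 3 lower. Among them Crmp1 and Dpysl5, which encode relatives that act downstream of semaphorins, were at 7.51 ± 2.73 and 9.28 ± 1.04 with Rfx4 against 3.17 ± 4.18 and 5.58 ± 3.58. Of 15 co-receptor genes 3 were higher and 3 lower, and the adhesion gene Nrcam, itself on the neural tube marker list, was at 8.34 ± 1.76 against 1.71 ± 3.46.

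In the dorsal bud, cells with Epcam had more Sema3c and Sema3f, and cells without it had more Slit2, Slit3, Epha4, Epha7 and Sema6a. On plate 2A (41 and 7 cells), Epcam+ cells were higher for 9 of 55 members, against 8.88% of all genes, and lower for 12, against 15.1%. On plate 2B (25 and 13 cells) they were higher for 10, against 9.12%, and lower for 8, against 12.9%. On both plates alike, 6 members were higher (3.35% of all genes) and 7 were lower (5.89%), and no member differed by at least 1 in opposite directions. On each plate 2 of 7 class 3 semaphorins were higher, and 2 of 3 Slits and 2 of 7 EphA receptors lower, while the median difference over the EphA receptors was 0.066 on plate 2A and 0.23 on plate 2B. The 6 were Efnb3, Ephb2, Nrp1, Sema3c, Sema3f and Sema4g, and the 7 were Efna5, Efnb2, Epha4, Epha7, Sema6a, Slit2 and Slit3. After thinning, the differences of Efnb3, Nrp1 and Ephb2 fell to 0.84, 0.89 and 0.91 on plate 2B. That of Sema4g fell to 0.95 on plate 2A. Of the 6, only Sema3c and Sema3f were then still higher by at least 1 on both plates. The 7 were all still lower by at least 1 on both.

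Higher with Epcam on both plates, Sema3f, a ligand that prefers neuropilin 2, was at 2.30 ± 3.42 against 1.08 ± 1.52 on plate 2A and 2.82 ± 3.39 against 0.78 ± 1.74 on plate 2B. Sema3c was at 2.85 ± 3.81 against 0.52 ± 1.39 and at 2.42 ± 3.08 against 1.16 ± 2.26. Nrp1 was at 2.91 ± 3.83 against 0.56 ± 1.08 and at 2.06 ± 3.15 against 1.04 ± 2.56. Cells with Epcam could hold ligand and co-receptor together: of 66 Epcam+ cells, 51 had a class 3 semaphorin, 29 a neuropilin and 25 both, while 1 of 20 Epcam- cells had both. Ephb2 was found in 31 of 66 and 6 of 20 cells.

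Lower with Epcam on both plates, Epha4 was at 1.03 ± 2.33 against 4.30 ± 4.10 on plate 2A and 1.96 ± 3.03 against 3.76 ± 3.65 on plate 2B. Epha7 was at 2.06 ± 3.31 against 4.61 ± 3.68 on plate 2A, and on plate 2B it was found in 8 of 25 and 9 of 13 cells, with a difference of -2.65. Both encode receptors of A ephrins. Efnb2, the ligand of Ephb4, was found in 13 of 20 Epcam- and 15 of 66 Epcam+ cells. Efna5, a ligand of EphA receptors, was found in 16 of 20 and 34 of 66 cells. Sema6a, a transmembrane semaphorin that binds A plexins, was found in 16 of 20 Epcam- cells (median 7.46, highest 9.35) and 30 of 66 Epcam+ cells (median 0, highest 9.64). Of these Epcam+ cells, Sema6a was found in 1 of the 22 with endocrine markers and 29 of the 44 others. Epcam- cells were not compared with those others alone, so how far the Sema6a difference rests on endocrine-marker cells was not tested. Among the 10 Epcam- cells with mesenchyme markers, Sema6a was found in all, with values from 4.83 to 9.07, and in 6 of the 10 others. Slit3 was found in 6 of 10 with and without those markers. The receptor Ephb4 did not differ by 1 on either plate, and it stood with Efnb2 in 8 of 20 Epcam- cells and 10 of 66 Epcam+ cells.

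**Figure D4:**
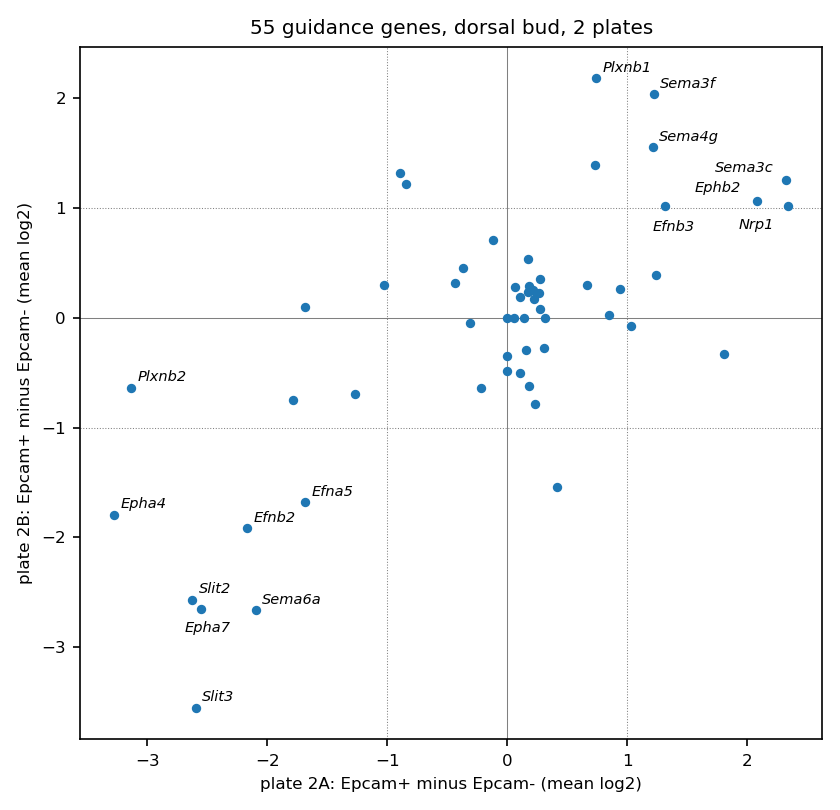
Difference in mean level (log2 scale) between dorsal bud cells with and without Epcam for the 55 guidance genes, plate 2A on the horizontal axis (41 and 7 cells) and plate 2B on the vertical axis (25 and 13 cells); dotted lines mark 1. The 6 named genes at upper right lie past 1 on both plates, Slit2, Slit3, Sema6a, Efnb2, Efna5, Epha4 and Epha7 lie below -1 on both, and no gene lies past 1 in opposite directions.

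The related lists differed in both directions between these classes. On plate 2A, 2 netrin and repulsive guidance genes were higher and 2 lower, as were 8 and 9 effectors and 3 and 2 co-receptors. On plate 2B the counts were 0 and 2, 5 and 8, and 3 and 5. Ntng2, a membrane-anchored netrin relative, was lower with Epcam on both plates, at 0 against 1.74 ± 2.97 and 0.23 ± 1.17 against 3.28 ± 3.70. Flrt2, an adhesion gene whose product binds netrin receptors, was at 4.51 ± 4.59 against 6.43 ± 4.42 and 5.41 ± 4.42 against 8.90 ± 1.39, and Met was found only with Epcam on either plate. Flrt2 was low in the Epcam+ cells with endocrine markers and higher in the other Epcam+ cells, as given below.

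Among dorsal bud cells with Epcam, those with endocrine markers had less of many guidance receptors. This comparison was added after the data were seen, and the 22 cells with at least 3 of 10 endocrine markers were set beside the 44 others. They had a median of 7 members per cell against 13.5, at 866408 against 850484 median reads and 5717.5 against 5450 median genes. Of 55 members, 21 were lower by at least 1, against 10.2% of all genes, and 2 were higher, against 11%. The median difference over members was -0.56 and over all genes 0. The lower members took in 2 of 7 EphA and 2 of 5 EphB receptors, 4 of 8 plexins, both neuropilins, 2 of 3 Robo receptors and 3 of 5 ephrin-A genes.

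Robo1 was found in 4 of 22 endocrine-marker cells (median 0, highest 7.67) and in 36 of 44 others (median 7.15, highest 9.90). Sema6a was found in 1 of 22 (highest 4.91) and 29 of 44 (median 6.46, highest 9.64). Ephb4, the receptor of Efnb2, was found in 3 of 22 (highest 6.24) and 32 of 44 (median 6.07, highest 8.63). For these 3 genes most endocrine-marker cells were at 0 and most others were not, although the ranges overlapped. It held on each plate: Robo1 was found in 3 of 13 and 22 of 28 cells on plate 2A and in 1 of 9 and 14 of 16 on plate 2B, and Ephb4 in 2 of 13 and 17 of 28, and in 1 of 9 and 15 of 16. Plxna2 was found in 4 of 22 and 26 of 44 cells, and Plxnb2 in 10 of 22 and 34 of 44. Nrp2, Robo2 and Sema5a were found in no endocrine-marker cell and in 10, 9 and 9 of the others. Nrp1 was at 1.63 ± 3.34 against 3.06 ± 3.65, but on plate 2B alone its difference was 0.61 in the other direction. The 2 higher members were ligands: Slit1 was at 1.93 ± 3.27 against 0.11 ± 0.72, found in 6 of 22 and 1 of 44 cells, and Sema6d was found in 5 of 22 and 5 of 44, with a difference of 1.01.

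**Figure D5:**
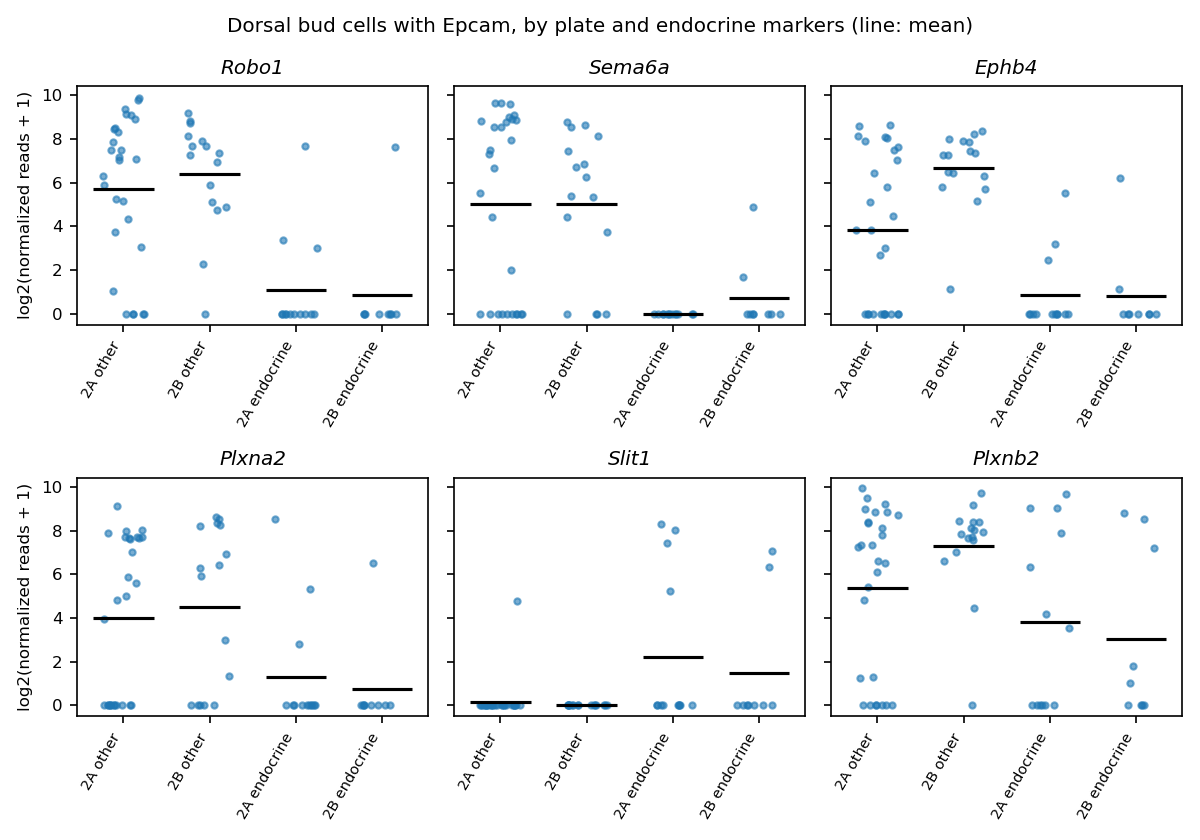
Level of 6 guidance genes in each dorsal bud cell with Epcam, as log2(normalized reads + 1), by plate and by endocrine markers (points: cells; line: mean). Robo1, Sema6a and Ephb4 are mostly at 0 in endocrine-marker cells of both plates, and Slit1 is found in 6 of the 22 endocrine-marker cells and 1 of the 44 others.

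Partners of the receptors shared this pattern in part. Of 15 co-receptor genes, 7 were lower in endocrine-marker cells and none was higher. Flrt2 was at 0.27 ± 1.25 against 7.14 ± 3.72, Flrt3 at 0.29 ± 1.06 against 4.62 ± 4.13 and Sdc1, a heparan sulfate proteoglycan, at 1.03 ± 2.31 against 5.22 ± 3.54. Effectors went both ways, 6 of 41 higher and 9 lower: the kinase gene Pak3 was at 4.87 ± 3.93 against 0.47 ± 1.53, and its relative Pak1 at 1.87 ± 3.12 against 4.79 ± 3.58. Of 13 netrin and repulsive guidance genes none was higher and 3 were lower, with Rgma at 0.30 ± 1.18 against 2.96 ± 2.82. Prox1 itself was at 10.20 ± 1.32 in endocrine-marker cells and 9.47 ± 2.5 in the others.

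Ventral bud cells had less of several guidance genes than dorsal cells with Epcam, with Robo2 the 1 exception past 1. Of 55 members, 1 was higher, against 2.16% of all genes, and 6 were lower, against 16.1%. The ventral cells also had fewer genes per cell (median 4202 against 5529.5), and the share of genes lower by 1 was greater over all genes than over members. Robo2 was at 2.79 ± 3.81 (10 of 27 cells, highest 9.71) against 1.01 ± 2.57 (9 of 66). Robo1 went the other way, at 2.10 ± 3.00 (10 of 27) against 4.32 ± 3.72 (40 of 66). Sema6a was found in 3 of 27 and 30 of 66 cells, Efna1 in 4 and 31, Ephb2 in 4 and 31, and Efnb3 in 1 and 17. The Efna1 difference rested on 1 dorsal plate. Its level with Epcam was 4.73 ± 4.21 on plate 2A (24 of 41 cells) and 1.61 ± 2.64 on plate 2B (7 of 25). In the ventral bud it was 1.13 ± 2.76, less than 1 below plate 2B. Plxna2 was at 1.69 ± 3.13 against 3.13 ± 3.59. Ephb4 was found in 15 of 27 and 35 of 66 cells, and Nrp1 in 12 of 27 and 24 of 66. Against dorsal plate 2B alone 16 members differed (1 higher, 15 lower), and against dorsal cells without endocrine markers 18 did (1 higher, 17 lower). The shares of all genes for these subsets are not given, so these counts cannot be read as particular to the members. Of the related lists, 11 of 41 effectors were lower and 1 higher, and 4 of 15 co-receptors were lower and 2 higher. Dpysl5 was at 3.37 ± 3.93 in the ventral and 6.37 ± 3.96 in the dorsal bud, and Dag1, which encodes the Slit-binding dystroglycan, at 4.40 ± 4.05 against 7.45 ± 3.31. No netrin or repulsive guidance gene differed by 1.

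In the liver, guidance genes lay mainly in the cells without Afp. Of 55 members, 2 were higher in Afp+ cells, against 16.1% of all genes, and 10 were lower, against 3.79%. Over all genes the balance was thus the reverse of that over members. Only 9 members had a mean level of at least 1 over the 2 classes, and of these 1 was higher and 5 were lower. On that filter 47.8% of all genes were higher and 8.90% lower. Plxnb2 was alike, found in 14 of 47 Afp+ and 9 of 31 Afp- cells. Nrp1 was found in 18 of 31 Afp- cells (median 5.16, highest 12.89) and 4 of 47 Afp+ cells (median 0, highest 10.92). Efna5 was found in 15 of 31 (highest 10.87) and 5 of 47 (highest 8.38). Robo2, Sema3a, Epha7 and Epha3 were found in 10, 9, 7 and 6 of 31 Afp- cells and in no Afp+ cell. Thinning to 500000 reads left Nrp1 in 17 of 31 and 4 of 47 cells and Sema3a in 7 of 31 and 0 of 47.

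The cells without Afp differed among themselves. Sema3a, a repellent that signals through Nrp1, was found in none of the 11 cells with cardiac markers, in 5 of 11 with mesenchyme and no cardiac markers, and in 4 of the 9 others. Epha3 was found in 0, 3 and 3 of these cells. Nrp1 was found in 5, 8 and 5. Afp+ cells had more Robo1 (19 of 47 cells, 3.19 ± 3.98, against 7 of 31, 1.76 ± 3.36) and Plxnb1 (9 of 47, 1.46 ± 2.95, against 1 of 31, 0.21 ± 0.71), the 2 higher members. Ephb4 was found in 15 of 47 and 6 of 31 cells. Sema4b was found in 18 of 47 and 10 of 31 cells, but at low counts, and after thinning it was found in 9 and 5. Of the related lists, 3 of 13 netrin and repulsive guidance genes were lower with Afp and none higher, with the netrin receptor Unc5c at 0 against 2.34 ± 3.44. Effectors split 4 higher and 6 lower, and the largest difference was in Dpysl2, a semaphorin effector, at 4.56 ± 4.36 against 10.19 ± 2.95. Met, the hepatocyte growth factor receptor, was at 2.51 ± 3.79 with Afp and at 0 without.

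At E14.5, the mesenchymal cells with Col1a1 had more Epha3, Epha4, Epha7, Sema5a, Sema5b and Slit2 than the cells without it, most of which had epithelial and endocrine markers. Col1a1+ cells were higher for 14 of 55 members, against 8.37% of all genes, and lower for 4, against 13.5%. The higher ones took in 3 of 7 EphA and 2 of 5 EphB receptors, 2 of 6 class 5 and 6 semaphorins and 2 of 3 Slits. Prox1 was found in 10 of the 58 Col1a1+ cells and 14 of the 15 Col1a1- cells, although all were sorted for the reporter.

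Among ligands, Sema5a (chromosome 15, 32244810 to 32696341), a transmembrane semaphorin with thrombospondin repeats, was found in 46 of 58 Col1a1+ cells (median 9.26, highest 12.72) and 5 of 15 Col1a1- cells (median 0, highest 8.74). Slit2 was found in 43 of 58 and 1 of 15. Efnb1, an ephrin gene on the X chromosome, was at 4.34 ± 4.07 (33 of 58) against 0.48 ± 1.86 (1 of 15). Sema5b was found in 21 of 58 cells (3.18 ± 4.36) and in none of 15, and Sema3a in 12 of 58 and none of 15. A share of 0 of 15 allows up to 20%. Among receptors, Epha3 (chromosome 16, 63543534 to 63864175) was found in 43 of 58 Col1a1+ cells (median 7.73, highest 11.87) and 2 of 15 Col1a1- cells (highest 7.76). Epha4 was found in 30 of 58 and 1 of 15, Epha7 in 29 and 3, Ephb4 in 23 and 0, and Ephb3 in 14 and 0. At least 1 EphA receptor was found in 53 of 58 Col1a1+ and 6 of 15 Col1a1- cells.

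The cells without Col1a1 had fewer members but a few of their own. Sema3g, a class 3 semaphorin known from vessels, was found in 6 of 15 cells (2.30 ± 2.98, highest 6.82) and in no Col1a1+ cell. All 6 were among the 12 cells with endocrine markers. Over all plates Sema3g was found in 9 of 346 cells. Plxnb2 was found in 11 of the 12 endocrine-marker cells, at 7.19 ± 3.12, against 10 of 22 in the dorsal bud at E10.5. Sema4b was found in 8 of 15 and 16 of 58 cells, and after thinning in 7 and 8. Sema4a and Plxnd1 were the other 2 members that were higher without Col1a1. Plxnd1 was found in 2 of 15 cells, and 1 of them had endothelial markers. The co-receptors followed the members: 6 of 15 were higher with Col1a1 and none lower, with Flrt2 at 7.79 ± 4.08 against 0.63 ± 2.44 and Flrt3 at 2.83 ± 4.08 against 0. Effectors leaned the other way, with 2 of 41 higher and 10 lower, and Mical2, which encodes an actin-oxidizing semaphorin effector relative, was at 0.21 ± 1.23 against 5.04 ± 3.97. Of 13 netrin and repulsive guidance genes, 2 were higher, Unc5c and Unc5d, at 3.20 ± 4.12 and 1.26 ± 3.02 against 0 for both.

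Set beside the dorsal bud cells without Epcam at E10.5, the E14.5 Col1a1+ cells had another set of guidance genes. Of 55 members, 8 were higher at E14.5, against 2.59% of all genes, and 13 were lower, against 28.6%. Stage, plate and labelled tissue differ together here, the E14.5 cells had fewer genes per cell (median 3036 against 6057), and 10 of the 20 dorsal cells had mesenchyme markers. The 8 higher members were Sema5a, Epha3, Efnb1, Nrp1, Slit2, Sema5b, Sema3a and Sema4b. Epha3 was found in 43 of 58 E14.5 cells and none of 20 at E10.5, which allows up to 15%, nor in any of the 66 dorsal cells with Epcam, which allows up to 4.55%. Sema5a was found in 46 of 58 and 2 of 20 cells, and Nrp1 in 27 of 58 and 3 of 20. Against the 10 dorsal cells with mesenchyme markers alone, the difference was 7.41 for Sema5a, 6.27 for Epha3 and 1.64 for Slit2, so these 3 were higher there too.

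The 13 lower members, 23.6% of members against 28.6% of all genes, included receptors and ligands found in the earlier bud. With a mean level of at least 1 over the 2 classes, 11 of 26 members were lower, against 65.9% of all genes. On that filter 6 members were higher, against 5.14% of all genes. Robo1 was found in 11 of 58 E14.5 cells (1.36 ± 2.98) and 15 of 20 E10.5 cells (5.47 ± 3.22). Sema6a was found in 13 of 58 and 16 of 20, Efnb2 in 6 and 13, Slit3 in 9 and 12, and Efna5 in 22 and 16. Slit2 and Slit3 thus stood on opposite sides of this comparison, with differences of 2.60 and -2.76, and of 1.64 and -2.84 against the cells with mesenchyme markers. Ephb4 was at 3.36 ± 4.18 against 4.47 ± 3.54, and its difference changed sign, to 0.27 with plate 2A alone and 0.34 with the mesenchyme-marker cells. Of the related lists, 21 of 41 effectors were lower and 1 was higher, with Dpysl5 and Crmp1 found in no E14.5 Col1a1+ cell and at 4.40 ± 3.76 and 4.07 ± 3.88 in the dorsal Epcam- cells. Of 13 netrin and repulsive guidance genes 2 were higher and 3 lower, and of 15 co-receptors 1 was higher and 4 lower.

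The remaining 26 members were found in fewer than 50% of the cells of every class and differed by less than 2 in the 7 comparisons other than that of endocrine-marker cells. The most frequent were Plxna1 (77 of 346 cells), Efna4 (76), Plxna3 (70) and Efna2 (63). The rarest were Epha8 (3 cells), Epha5 and Robo4 (4 each), and Sema4f and Sema6b (5 each). Plxna1 and Plxna3, receptors of class 3 semaphorins with neuropilins, were found in most tissues: Plxna1 in 24 of 51 foregut Rfx4+, 20 of 66 dorsal Epcam+ and 9 of 58 E14.5 Col1a1+ cells, and Plxna3 in 20, 18 and 10. Sema4g was found in 21 of 66 dorsal Epcam+ cells, 6 of 27 ventral cells and no dorsal Epcam- cell.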

How the data were processed

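Cells sorted for the reporter were sequenced one per well with Smart-seq2 and Nextera XT, per the labels' protocols, a kit that does not mark strand, so a gene and its antisense partner cannot be told apart. Per the submitters' processing notes, the build was GRCm38 and the tools STAR 2.5.3, Cufflinks and Cuffdiff 2.2.1. Not given in the sources used here are the read counter, annotation release, size factors and filters.

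A single table of log2 values was deposited, read from the values themselves as log2(reads / size factor + 1): 1647510 of 1647530 fell within 0.01 of whole reads once 1 factor per cell was applied. Empty entries (76.7%) were set to 0. No doublet caller was run, and no pair of cells was identical.

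Since the labels name no animal, only means, SD over cells, differences and shares were computed. Shares use 5 normalized reads, and a share of 0 is given with 3 divided by the number of cells as its limit. Such limits cover counting error only, and PCR reads are not independent molecules. Depth was matched by thinning to 500000 reads (seed 1). The members, lists, splits and comparisons were chosen with earlier results of these data known. Members given in full differed by at least 2 in 1 of 7 comparisons or were found in at least 50% of the cells of a class. Other genes named are the split genes, Prox1 and up to 4 genes of a related list with the largest differences. A cell was said to have markers of a type with 3 or more of its list. Reads per kilobase use merged exons of GENCODE M21. Of 55 members 48 matched the RefSeq promoter table. The recovery of reads and the direction of differences in means were tried on simulated cells. Shares, thinning and marker classes were not. Alternatives were other pseudocounts, scaling, filters, splits, thinning and subsets of cells. Tools were python 3.11.15, numpy 2.4.6, pandas 2.3.3, scipy 1.17.1 and matplotlib 3.10.9.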

Additional observations from a re-analysis of the deposited data

How the results depend on the processing

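With a pseudocount of 10, members that differed by at least 1 numbered 7 in place of 21 on the foregut plate, 11 in place of 21 on dorsal plate 2A, 7 in place of 18 on plate 2B, 7 in place of 12 in the liver, 13 in place of 21 between E14.5 Col1a1+ and dorsal Epcam- cells, and 14 in place of 23 for endocrine-marker cells. At the same pseudocount, 12 of 18 members kept their difference between E14.5 Col1a1+ and Col1a1- cells, and 5 of 7 in the ventral comparison. A larger pseudocount shrinks differences between low values by its construction. The ventral comparison gave 20 in place of 7 with a pseudocount of 0.1, 16 against plate 2B alone and 18 without endocrine-marker cells, and the liver gave 6 in place of 12 where members needed a mean of at least 1; the causes of the ventral counts were not tested. Of the single differences recomputed, 1129 kept their direction or moved by under the spread between cells, 1 was counted as moved, and 4 reversed. That spread was often larger than the difference itself, so the 1129 do not show that a difference was stable. Robo2 on the foregut plate reversed to -0.12 against Rfx4- cells with Epcam. Ephb4 between E14.5 and dorsal cells reversed to 0.27 with plate 2A alone and 0.34 with mesenchyme-marker cells. Nrp1 in endocrine-marker cells reversed to 0.61 on plate 2B alone, and the causes were not tested. Other scaling, thinning, splits at 3 or 7 and the removal of cells of other types left the count of members in each comparison within 1.5 times its value. The set of members higher with Epcam on both dorsal plates shrank more with thinning, to Sema3c and Sema3f. A minimum of 2000 genes removed 0 cells. The median of all genes moved by over 0.1 for the ventral comparison, from -0.12 to -0.23 with a pseudocount of 0.1, and for the E14.5 and dorsal one, from -0.20 to between -0.42 and 0. Subsets by cardiac, endocrine and mesenchyme markers, by Epcam among Rfx4- cells, and the endocrine comparison with its alternatives were chosen after seeing the data. No paired analysis was possible because each plate is 1 sample and no test was run. The number of cells limits the small classes: 0 of 7 cells allows a share of up to 42.9%.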

Other observations

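A few cells on 4 of the splits had at least 3 of 9 blood endothelial markers: 4 foregut Rfx4- cells, 3 liver Afp- cells, 1 dorsal Epcam- cell and 1 E14.5 Col1a1- cell, 9 in all. Plxnd1, the receptor of Sema3e, was found in 8 of 9, with a median of 9.65 and a highest value of 10.73, and in 4 of the 27 other foregut Rfx4- cells and 1 of the 28 other liver Afp- cells. Nrp2, a co-receptor of lymphatic growth factor signalling, was found in 6 of 9, with all 4 of the foregut ones among them, and in 5 of the 27 other foregut Rfx4- cells. Robo4 was found in 3 of 9 and in 4 of all 346 cells. Efna1 was found in 7 of 9 cells, with a highest value of 10.30, and Sema6d in 5 of 9. Ephb4 was found in 5 of 9 and Efnb2 in 4 of 9, beside 13 of 20 dorsal Epcam- cells for each. Efna1 was found in no other E14.5 Col1a1- cell and in 1 of the 28 other liver Afp- cells. These 9 cells come from 4 plates of different tissues, and no test was run.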
